A study of Homo sapiens with 4 samples.

Results

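SMAD4 and 8 further genes of transforming growth factor beta (TGF-beta) signalling were examined: SMAD2, SMAD3, SMAD7, SKIL, TGFBR1, TGFBR2, TGFB1 and TGFB2. They were chosen by name, after SMAD4 had been seen to be low in both count tables, so the lower SMAD4 value is a description and carries no test. The 9 genes are 9 of 27575 gene names in the tables. Their rows are 2478 of 2310971 regions in the Input table and 3285 of 3814162 in the J2 table, of which 1560 and 1948 lie on the strand of the named gene.

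The cells were NCI-H1944, a human lung adenocarcinoma line of wild-type genotype. They received 100 nM BAY-1217389, an inhibitor of the spindle checkpoint kinase MPS1 (labelled MPS1i), or DMSO, for 48 h, and were cultured for 24 h more after the agent was washed out. Total RNA from 10% of each lysate gave the Input libraries, and the remaining lysate was precipitated with J2, an antibody against double-stranded RNA. The 4 groups, MPS1i Input, DMSO Input, MPS1i J2 and DMSO J2, hold 1 library each, so every difference is between single libraries and carries no p-value. Intervals are 95% exact (Clopper-Pearson) intervals. They cover counting error only and treat reads as independent. Where reads are PCR copies, which are not independent molecules, the intervals are too narrow.

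Summed counts were 4844956 in MPS1i Input, 6381610 in DMSO Input, 6697479 in MPS1i J2 and 9793355 in DMSO J2. Each value is the sum over regions on the strand of the gene, given as counts or as CPM, counts scaled to the library's sum. A gene was called higher or lower where its 2 libraries held at least 50 counts together, its CPM differed at least 2-fold and the interval excluded equality. The 7 epithelial markers summed to 111 CPM in MPS1i Input and 114 CPM in DMSO Input, with KRT8 at 342 counts in MPS1i Input and 509 in DMSO Input, EPCAM at 0 and 13, and KRT19 at 0 and 1. The 6 fibroblast markers summed to 7.43 CPM in MPS1i Input, 0.784 in DMSO Input, 14.0 in MPS1i J2 and 1.74 in DMSO J2, with COL1A1 at 0 in every library. The 5 leukocyte markers summed to 12.2, 2.66, 17.5 and 3.88 CPM in the same libraries. Their part in the results below was not tested.

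In this pathway a dimeric ligand such as TGFB1 or TGFB2 binds the receptor TGFBR2, which recruits and phosphorylates the receptor TGFBR1. TGFBR1 phosphorylates SMAD2 and SMAD3, which join SMAD4 and enter the nucleus to bind target genes. SMAD7 is an induced inhibitor that blocks the receptor, SKIL is a corepressor of SMAD complexes, and SMAD4 is a tumour suppressor that several epithelial cancers lose.

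Promoter windows from RefSeq (GRCh38.p14), 250 bases before to 50 after the transcript start, are shown for SMAD4, because its counts were low, and for SMAD7 and SKIL, both textbook targets of SMAD complexes. The SMAD4 window is chr18:51029963-51030262 (+), the SMAD7 window chr18:48950916-48951215 (-) and the SKIL window chr3:170357465-170357764 (+). Capitals mark CAGAC or its reverse complement GTCTG, the SMAD-binding core.
SMAD4: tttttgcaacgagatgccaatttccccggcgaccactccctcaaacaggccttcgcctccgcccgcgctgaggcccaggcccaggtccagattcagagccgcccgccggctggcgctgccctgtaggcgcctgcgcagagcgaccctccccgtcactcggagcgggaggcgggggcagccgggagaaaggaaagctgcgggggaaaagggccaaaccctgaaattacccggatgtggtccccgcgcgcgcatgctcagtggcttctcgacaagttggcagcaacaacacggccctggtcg
SMAD7: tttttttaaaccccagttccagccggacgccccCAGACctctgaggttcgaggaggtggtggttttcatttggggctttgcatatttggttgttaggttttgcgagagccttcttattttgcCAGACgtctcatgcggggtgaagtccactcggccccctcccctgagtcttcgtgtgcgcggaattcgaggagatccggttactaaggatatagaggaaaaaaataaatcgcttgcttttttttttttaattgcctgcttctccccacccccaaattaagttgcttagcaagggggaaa
SKIL: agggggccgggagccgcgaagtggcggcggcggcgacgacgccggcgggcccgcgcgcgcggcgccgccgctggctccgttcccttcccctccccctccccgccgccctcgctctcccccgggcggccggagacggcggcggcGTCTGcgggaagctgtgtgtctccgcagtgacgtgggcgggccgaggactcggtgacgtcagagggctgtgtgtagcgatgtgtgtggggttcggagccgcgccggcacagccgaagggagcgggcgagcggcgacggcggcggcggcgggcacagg
The core was found 0 times in the SMAD4 window, 2 times in the SMAD7 window and 1 time in the SKIL window, and it occurs in 45.3% of 35116 such windows. The palindrome GTCTAGAC was in 0 of the windows of the 9 genes and in 0.202% of all windows. Only the SMAD7 window among these 3 held sense counts: 66 in MPS1i Input, 62 in DMSO Input, 101 in MPS1i J2 and 143 in DMSO J2. The SMAD4 window had 0 sense counts in every library, and its antisense counts were 12 in MPS1i Input, 6 in DMSO Input, 1 in MPS1i J2 and 2 in DMSO J2.

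SMAD4, the partner shared by all receptor-activated SMADs, had 123 counts (25.4 CPM) in MPS1i Input and 397 (62.2 CPM) in DMSO Input. It had 229 counts (34.2 CPM) in MPS1i J2 and 817 (83.4 CPM) in DMSO J2. Both MPS1i libraries were below both DMSO libraries. The log2 ratio of MPS1i over DMSO was -1.29 (interval -1.60 to -0.998) in Input and -1.28 (-1.50 to -1.07) in J2. Neither ratio reached 2-fold when both strands were summed (-0.61 and -0.68) or when each region was counted once (-0.74 and -0.29). No SMAD4 sense count carried an exon or untranslated-region class, so the values describe mostly intronic RNA and not spliced mRNA. In bulk RNA, fewer cells with the transcript and less transcript per cell cannot be told apart.

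Of the 9 genes, SMAD4 alone passed the call in Input, where 17.3% of 12594 genes were called higher and 13.7% lower. Counted by overlap with the annotated gene, SMAD2 (-1.01) and TGFBR2 (-1.33) were called lower in Input too, beside 16.4% of all genes. In J2, TGFBR1 was called higher and SMAD4 and TGFB1 lower, beside 21.5% of 14007 genes higher and 17.3% lower. The medians of the 9 log2 ratios were -0.03 in Input and 0.04 in J2, and those of all genes were -0.05 and -0.02. The genes were chosen by these same contrasts, so the counts of calls are descriptions.

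**Figure D1:**
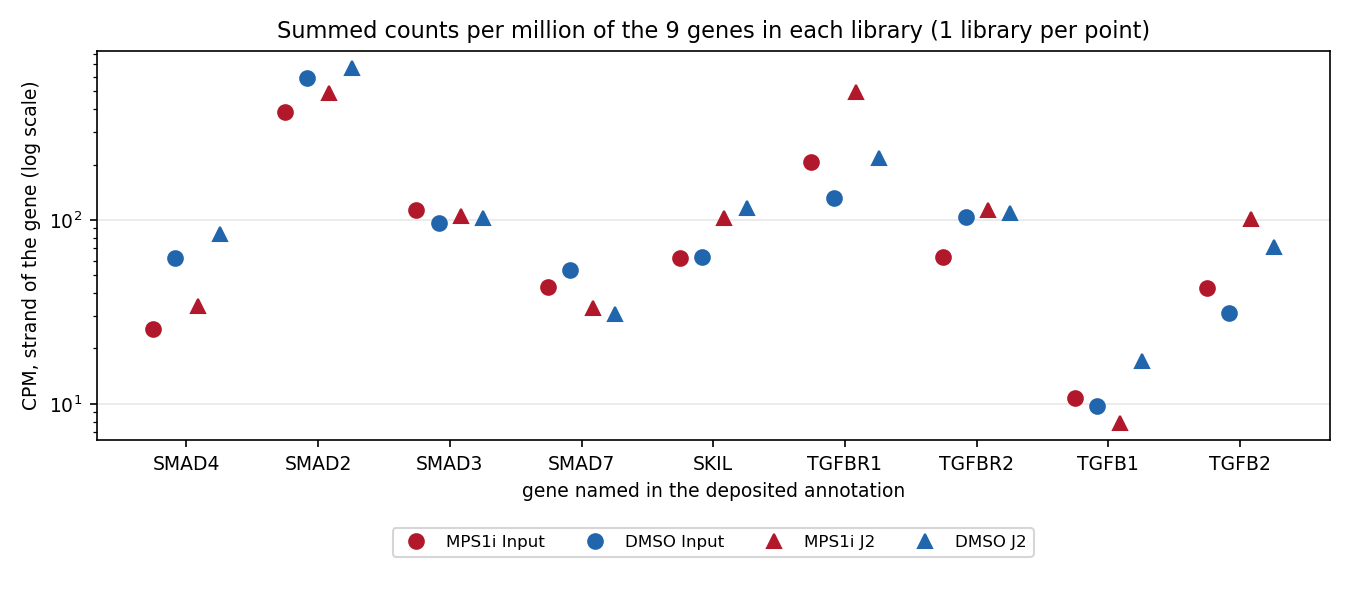
Summed CPM on the strand of each gene (log axis) in MPS1i Input, DMSO Input, MPS1i J2 and DMSO J2, 1 library per point. SMAD4 sits at 25.4 and 34.2 CPM in the MPS1i libraries and at 62.2 and 83.4 CPM in the DMSO libraries.

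The lower SMAD4 counts lay inside the gene (ENSG00000141646, chr18:51028394-51085045, + strand, GRCh38). Past the first 2 kb, the gene body held 84 sense counts in MPS1i Input and 353 in DMSO Input, a log2 ratio of -1.67 (-2.03 to -1.33). In J2 it held 153 with MPS1i and 727 with DMSO, -1.70 (-1.961 to -1.45). The 50 kb past the gene's end, outside any gene on that strand, did not share this: 14 against 17 in Input, 0.13 (-1.01 to 1.23), and 59 against 47 in J2, 0.87 (0.30 to 1.46), MPS1i given before DMSO. The Input value turns negative when TMM or DESeq2 factors are used for scaling. In regions overlapping exactly 1 annotated gene on that strand, SMAD4 held 9 Input counts with MPS1i and 112 with DMSO. Most Input counts inside SMAD4 thus also overlapped another annotated gene on that strand. No sense count of the 9 genes carried the exon class, and few lay in untranslated or transcript-end regions. SMAD7-named 3′ UTR counts in Input were 8 with MPS1i and 8 with DMSO. Of these, 8 and 6 lay at chr18:48860094-48862006, outside SMAD7, in an exon that the annotation gives to NM_001142397. The transcript end of TGFBR1 held 86 with MPS1i and 21 with DMSO in J2. The other counts lay in introns, start sites and intergenic flanks.

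Within SMAD4 the J2 difference was uneven along the gene. Intron 10 of 11 (transcript NM_005359) held 40 counts in MPS1i J2 and 545 in DMSO J2, a log2 ratio of -3.20 (-3.72 to -2.76). Intron 1 held 74 and 129, -0.25 (-0.69 to 0.17). In Input, intron 10 held 6 counts with MPS1i and 77 with DMSO, -3.18 (-4.77 to -2.10), and intron 1 held 49 and 156, -1.26 (-1.77 to -0.80). Intron 10 was thus low in both MPS1i libraries, whereas intron 1 was low in MPS1i Input and near equal in J2. Introns 3 and 5 had J2 ratios above 0, with 21 against 11 counts, 1.45 (0.36 to 2.68), and 10 against 4, 1.77 (0.08 to 3.997). Their Input ratios were below 0, at -3.06 and -1.87.

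In 4 equal stretches of the gene from its start, the J2 log2 ratios were -0.46, 0.03, -1.94 and -3.52. In Input they were -2.58, -0.68, -3.61 and -3.09. The ratio of the last stretch minus that of the first was -3.05 (-3.92 to -2.19) in J2 and -0.51 (-2.07 to 1.05) in Input. Among the 5974 protein-coding genes with at least 20 J2 counts in both stretches, the median of this difference was -0.16. Of them, 5860 lay above SMAD4, a description only, since SMAD4 was chosen for its low counts. In 10 kb bins, the bin 40 to 50 kb from the start held 34 counts in MPS1i J2 and 482 in DMSO J2, or 5.08 and 49.2 CPM. The most-read sense region of the gene in J2 was in that bin (chr18:51070759-51071803, intron 10), with 5 counts under MPS1i and 123 under DMSO.

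**Figure D2:**
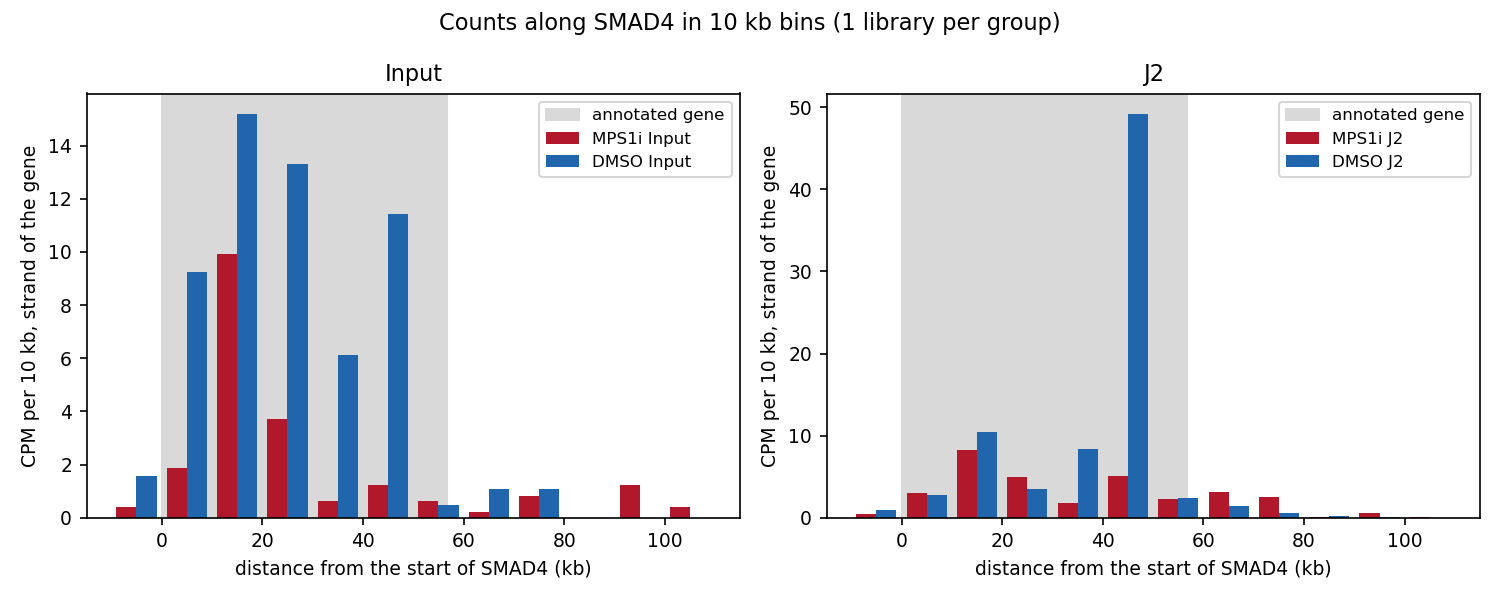
CPM per 10 kb on the strand of SMAD4 against distance from the gene's start, with MPS1i bars left of DMSO bars in Input and J2, 1 library each, and the annotated gene shaded. The DMSO J2 bar at 40 to 50 kb reaches 49.2 CPM and its MPS1i counterpart 5.08 CPM.

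Intron 10 had more J2 than Input signal in both treatments, summed over 26 Input regions and 22 separately defined J2 regions. Its log2 ratio of J2 over Input was 2.17 (1.02 to 3.80) in MPS1i cells and 2.20 (1.86 to 2.57) in DMSO cells, and the change between treatments was -0.03 (-1.27 to 1.22). Intron 1 was not enriched, with 0.12 (-0.41 to 0.68) in MPS1i cells and -0.89 (-1.24 to -0.55) in DMSO cells, a change of 1.01 (0.40 to 1.63). Intron 3, with 2 counts in MPS1i Input, 27 in DMSO Input, 21 in MPS1i J2 and 11 in DMSO J2, had a change of 4.51 (2.38 to 6.65). The introns thus differed from each other in this change. The whole gene had 0.43 (0.11 to 0.76) and 0.42 (0.25 to 0.60). Alu repeats, short interspersed elements that can pair when inverted, held a minority of the SMAD4 counts: 25 of the MPS1i J2 counts and 103 of the DMSO J2 counts. The log2 ratio was -1.47 (-2.19 to -0.85) in those regions and -0.99 (-1.31 to -0.68) in J2 regions without any repeat.

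Antisense counts named for SMAD4, summed over all classes, had ratios above 0. They were 116 in MPS1i Input and 84 in DMSO Input, 0.86 (0.45 to 1.29), and 217 in MPS1i J2 and 228 in DMSO J2, 0.48 (0.20 to 0.75). The antisense strand made up 48.5% of the SMAD4 counts in MPS1i Input and 17.5% in DMSO Input, and 48.7% and 21.8% in J2. Of the antisense counts, the intergenic class held 86 with MPS1i and 41 with DMSO in Input, and 177 and 136 in J2. The 3′ UTR class held 0 and 11 in Input, and 11 and 21 in J2. The intron class held 8 and 24 in Input, and 28 and 61 in J2. The 5′ UTR class held 12 and 6 in Input, and 1 and 2 in J2. The promoter class held 10 and 2 in Input, and 0 and 7 in J2. One antisense region spans 48099 bases of the gene in Input, and both of its ends lie in annotated SMAD4 exons. It held 8 counts under MPS1i and 24 under DMSO.

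The receptor-activated SMADs behaved unlike each other. SMAD2 (chr18:47808957-47931146, - strand) had 1882 (388 CPM) in MPS1i Input, 3769 (591 CPM) in DMSO Input, 3281 (490 CPM) in MPS1i J2 and 6523 (666 CPM) in DMSO J2. Its log2 ratios, -0.60 (-0.69 to -0.52) and -0.44 (-0.50 to -0.38), were below 0 but short of the 2-fold minimum, and they turned positive, 0.26 and 0.14, with each region counted once. Introns 1 and 2 of 10 (NM_001003652) were at -1.20 and -1.10 in Input and -1.23 and -1.38 in J2. In J2, intron 8 held 396 counts with MPS1i and 433 with DMSO, 0.42 (0.22 to 0.62), and intron 10 held 234 and 211, 0.70 (0.42 to 0.97). A single 146-base region (chr18:47848329-47848474) carried nearly all of intron 8, with 396 and 417 J2 counts. In Input, intron 8 held 0 counts with MPS1i and 13 with DMSO, and intron 10 held 140 and 228, -0.30 (-0.62 to 0.00). Past the end of SMAD2 the counts were 230 in MPS1i Input and 89 in DMSO Input, 1.76 (1.41 to 2.14), and 404 and 267 in J2, 1.14 (0.92 to 1.37). SMAD2 sense counts in regions without a repeat differed little in J2, at 1516 with MPS1i and 2265 with DMSO, -0.03 (-0.13 to 0.06), whereas those in Alu regions were 210 and 790, -1.36 (-1.59 to -1.14).

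SMAD3 (chr15:67063763-67195195, + strand) differed by less than 1.5-fold in both tables. It had 552 counts in MPS1i Input and 615 in DMSO Input, 0.24 (0.07 to 0.41), and 707 in MPS1i J2 and 1003 in DMSO J2, 0.04 (-0.10 to 0.18). Its J2 counts past the gene's end were 50 with MPS1i and 14 with DMSO, 2.35 (1.51 to 3.35), and its Input counts there were 19 and 17, 0.55 (-0.46 to 1.59). Of the antisense Input counts under its name, 360 with MPS1i and 281 with DMSO came from 1 region of 107 bases (chr15:67208456-67208562, - strand) in an intron that the annotation gives to NM_001271885.

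SMAD7, the inhibitory SMAD (chr18:48919853-48952052, - strand), had 210 counts in MPS1i Input, 339 in DMSO Input, 222 in MPS1i J2 and 302 in DMSO J2. Neither sum was called, at -0.29 (-0.55 to -0.04) and 0.11 (-0.15 to 0.36). Of the J2 counts, 63 with MPS1i and 32 with DMSO lay downstream of the gene. Intron 10 of NM_014772 held 51 and 3 of the SMAD7-named J2 counts. Counted inside SMAD7, the ratios were -0.515 (-0.80 to -0.24) in Input and -0.25 (-0.55 to 0.04) in J2, both uncalled. Its start and its body differed. From 1 kb before to 2 kb after the start, counts were 121 against 106 in Input, 0.59 (0.20 to 0.98), and 120 against 160 in J2, 0.13 (-0.22 to 0.48), a J2 value that turns negative with TMM or DESeq2 factors. The rest of the gene held 45 against 205 in Input, -1.78 (-2.29 to -1.32), and 33 against 109 in J2, -1.16 (-1.78 to -0.60).

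SKIL, the corepressor (chr3:170357678-170396835, + strand), also differed between start and body. The whole gene had 299 counts in MPS1i Input and 403 in DMSO Input, -0.03 (-0.25 to 0.19), and 689 in MPS1i J2 and 1132 in DMSO J2, -0.17 (-0.31 to -0.03). At the start, 167 against 151 Input counts gave 0.54 (0.22 to 0.87) and 375 against 345 J2 counts gave 0.67 (0.45 to 0.88). In the body, 126 against 250 gave -0.59 (-0.91 to -0.28) and 312 against 787 gave -0.79 (-0.98 to -0.60). One promoter region with an AluSx element (chr3:170358651-170359598) held 353 of the MPS1i J2 counts and 332 of the DMSO J2 counts.

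TGFBR1, the signalling receptor (chr9:99104038-99154192, + strand), was called higher in J2, a call that is lost with TMM factors (0.93) or DESeq2 factors (0.90) or with each region counted once (0.48). It had 997 (206 CPM) in MPS1i Input and 839 (131 CPM) in DMSO Input, 0.65 (0.51 to 0.78). In J2 it had 3341 (499 CPM) with MPS1i and 2132 (218 CPM) with DMSO, 1.20 (1.12 to 1.28). Most of these counts came from 1 narrow region in intron 3 of 8 of NM_004612. Its J2 form, chr9:99132739-99132804 (66 bases, + strand), held 2848 counts with MPS1i and 1969 with DMSO. Its Input form, from the same start base, held 791 and 658. That is 85.2% and 92.4% of the TGFBR1 J2 counts. Without it, the TGFBR1-named J2 counts were 493 with MPS1i and 163 with DMSO, 2.14 on the log2 scale. Of these, 330 and 65 lay downstream of the gene and 20 and 2 upstream, so this ratio is not that of the gene alone. The counts past the gene's end were 86 against 9 in Input, 3.58 (2.66 to 4.83), and 388 against 73 in J2, 2.95 (2.59 to 3.34), the highest downstream ratios of the 9 genes in J2.

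TGFBR2, the ligand-binding receptor (chr3:30606502-30694142, + strand), had 304 counts in MPS1i Input and 661 in DMSO Input, -0.72 (-0.92 to -0.53), and 756 in MPS1i J2 and 1065 in DMSO J2, 0.05 (-0.08 to 0.19). Its body held 155 against 518 in Input, -1.34 (-1.61 to -1.08), and 339 against 840 in J2, -0.76 (-0.95 to -0.58). The 50 kb past its end held 148 against 141 in Input, 0.47 (0.12 to 0.81), and 380 against 198 in J2, 1.49 (1.24 to 1.74). Counts downstream of the gene were 54.4% of all sense counts named TGFBR2 in MPS1i J2 and 20.3% in DMSO J2.

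Many counts named for the 2 ligands came from neighbouring genes. Every sense count named TGFB2 lay upstream of TGFB2 (chr1:218346235-218444619, + strand), chiefly in intron 4 of NM_016052, with 206 in MPS1i Input, 198 in DMSO Input, 680 in MPS1i J2 and 696 in DMSO J2. Inside TGFB2 itself, regions of any name held 20, 29, 50 and 36 counts in those libraries. Their J2 ratio, 1.02 (0.38 to 1.68), passed the call, and the Input ratio was -0.13 (-1.04 to 0.73). Of the sense counts named TGFB1 (chr19:41301587-41353911, - strand), 88.5% in MPS1i Input, 75.8% in DMSO Input, 52.8% in MPS1i J2 and 49.4% in DMSO J2 lay upstream, largely in introns of NM_030578. The named sums were 52, 62, 53 and 168, and the J2 ratio was -1.11 (-1.59 to -0.66). Regions of any name inside TGFB1 held 279 against 510 in Input, -0.47, and 133 against 283 in J2, -0.54. Of those counts, only 6 and 15 in Input and 25 and 85 in J2 were named TGFB1. In MPS1i Input, 218 and 48 lay in the last 2 of 4 equal stretches of the annotated gene. Values under either ligand's name are therefore not measures of that ligand.

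**Figure D3:**
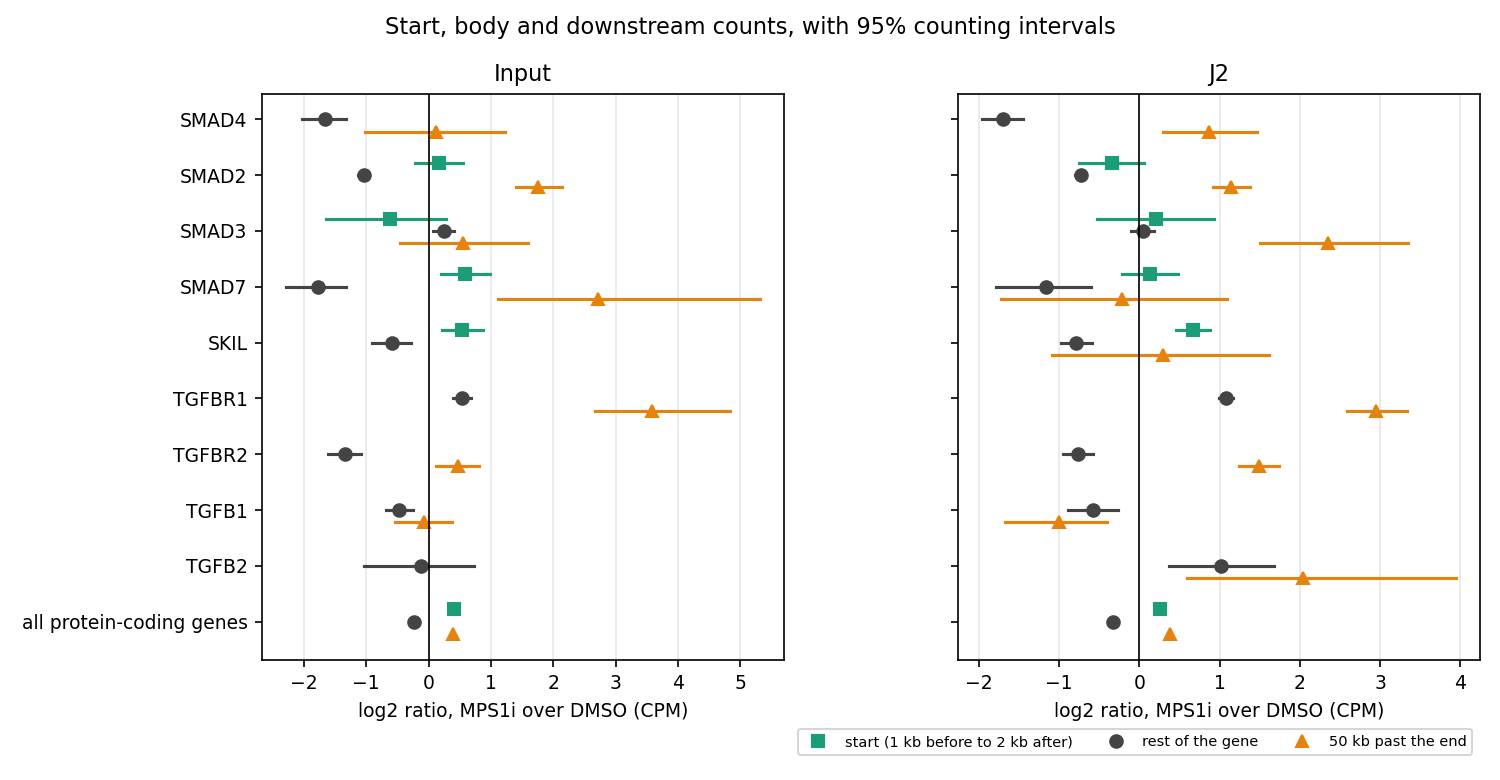
Log2 ratio of MPS1i over DMSO with 95% counting intervals for the start (1 kb before to 2 kb after), the rest of the gene and the 50 kb past the end, in Input and J2, 1 library per group, where at least 20 counts were present. For SMAD4, SMAD2 and TGFBR2 the downstream point lies right of the body point in both tables, and for TGFB1 left of it in J2. The bottom row gives the sums over all protein-coding genes.

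The gap between downstream and body counts was not particular to these genes. Summed over all protein-coding genes, the log2 ratios were 0.40 at the start, -0.23 in the body and 0.40 downstream in Input, and 0.25, -0.33 and 0.38 in J2. Downstream minus body had a median of 1.01 over 6703 genes in Input, with 77.4% above 0, and of 1.17 over 7920 genes in J2, with 81.0% above 0. Among the 9 genes, SMAD4 had 1.79 (0.73 to 2.85) and 2.57 (1.965 to 3.17). SMAD2 had 2.80 (2.44 to 3.17) and 1.87 (1.64 to 2.11), and TGFBR2 1.81 (1.39 to 2.23) and 2.25 (1.94 to 2.55). TGFBR1 had 3.05 and 1.87, SMAD7 4.50 and 0.94, SMAD3 0.31 and 2.31, and TGFB1 0.39 and -0.43. SKIL and TGFB2, measured in J2 only, had 1.08 and 1.03. SMAD4 was exceeded by 29.9% of genes in Input and 18.02% in J2. It was chosen for low counts, which lay mostly in its body, so these ranks are descriptions and lend no support. Start minus body was 2.37 (1.77 to 2.96) in Input and 1.30 (0.64 to 1.95) in J2 for SMAD7. For SKIL it was 1.13 (0.69 to 1.57) and 1.45 (1.17 to 1.74), for SMAD2 1.21 and 0.39, and for SMAD3 -0.87 and 0.17. The medians over all genes were 0.73 of 2694 genes and 0.38 of 3113.

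Per kilobase of annotated gene, the order of levels in MPS1i Input ran TGFBR1 (3.77 CPM per kb), SMAD2 (2.22), SKIL (1.54), TGFB1 (1.10), SMAD7 (1.06), SMAD3 (0.884), TGFBR2 (0.367), SMAD4 (0.306) and TGFB2 (0.0420). In DMSO Input it ran SMAD2 (4.46 CPM per kb), TGFBR1 (2.58), SKIL (1.60), TGFB1 (1.53), SMAD7 (1.51), SMAD4 (0.976), TGFBR2 (0.926), SMAD3 (0.751) and TGFB2 (0.0462). The place of TGFBR1 rests on its 98-base region, which held 791 of the 915 counts inside the gene in MPS1i Input and 658 of the 826 in DMSO Input. With 1 library per group, close neighbours in either order cannot be separated.

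J2 enrichment, the ratio of J2 over Input, was called for few of the genes. It compares separately defined regions of unlike covered length. In region pairs with at least 90% reciprocal overlap on the same strand, TGFB2-named counts had 0.82 (uncalled) in MPS1i cells and 1.08 (called) in DMSO cells. TGFBR1 had 5 such pairs, with 5 Input and 4 J2 counts in MPS1i cells, and SMAD4 had 9. Both held too few counts for a call. In MPS1i cells TGFBR1 was called higher at 1.28 (1.18 to 1.38) and the TGFB2-named counts at 1.25 (1.03 to 1.49), with 18.9% of all genes called higher and 8.46% lower. In DMSO cells the TGFB2-named counts alone were called, at 1.19 (0.97 to 1.43), beside 21.3% of genes higher and 9.07% lower. Scaled without mitochondrial regions, none of the 9 was called higher in either treatment and 1 was called lower in DMSO cells. Counted inside the annotated genes, TGFB1 was called lower in both, -1.53 (-1.84 to -1.23) in MPS1i cells and -1.47 (-1.68 to -1.26) in DMSO cells. The counts inside TGFB1 were mostly named for other genes. The change of enrichment between treatments was called lower for the TGFB1-named counts, -1.25 (-1.94 to -0.56), and for no other member, beside 9.33% of genes higher and 7.73% lower. Counted inside the annotated genes, TGFB1 had -0.07 (-0.43 to 0.30) and was not called, and TGFB2 was called higher, 1.14 (0.13 to 2.16). TGFBR2 had a change of 0.78 (0.54 to 1.01), and SMAD4 had 0.00 (-0.36 to 0.36).

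SMAD4, SMAD2 and SMAD7 lie on chromosome 18. Of its 211 genes measured in Input, 26 (12.3%) were called higher and 25 (11.8%) lower, beside 17.3% and 13.7% of all genes, with a median log2 ratio of -0.01. In J2, 43 of 232 (18.5%) were called higher, 26 (11.2%) were called lower, beside 21.5% and 17.3% of all genes, and the median was -0.02. Within 2 Mb of SMAD4, 2 of 15 other measured genes were higher and 1 was lower in Input, and 0 of 13 were higher and 1 was lower in J2. ELAC1, the nearest measured gene upstream, was at -0.35 (-0.78 to 0.07) in Input and -0.57 (-0.84 to -0.32) in J2, and MEX3C, downstream, at 0.47 (-0.21 to 1.16) and 0.18 (-0.24 to 0.59).

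The 5 genes nearest to SMAD4 over 3 values (the log2 ratios of MPS1i over DMSO in Input and J2, and J2 over Input in DMSO cells) among 11964 genes were NFIA, SGSM2, RAPGEF6, GNRH2 and MAPKAP1. Their distances were 0.08 to 0.10 on the log2 scale. NFIA had 30 counts in MPS1i Input, 96 in DMSO Input, 53 in MPS1i J2 and 200 in DMSO J2. MAPKAP1 had 345, 1149, 715 and 2499 in those libraries. None of the counts named GNRH2 lay inside that gene.

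A list of 93 TGF-beta genes by role set the 9 in context. In Input, 15 of 71 measured genes (21.1%) were called higher and 6 (8.45%) lower, beside 17.3% and 13.7% of all genes, and the median log2 ratio was -0.09. In J2, 14 of 71 (19.7%) were called higher, 13 (18.3%) lower, beside 21.5% and 17.3% of all genes, and the median was -0.08. Scaling with TMM factors would shift every log2 ratio by -0.19 in Input and -0.27 in J2. With regions assigned by overlap with the annotated gene instead of by name, 10 of 66 were higher and 15 lower in Input, and 12 of 68 higher and 13 lower in J2. The same assignment over all genes called 12.4% higher and 16.4% lower in Input, and 15.5% and 20.1% in J2.

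Among ligands, BMP2 and BMP4 were called higher, at 1.30 and 1.46 in Input and 1.08 and 1.81 in J2, but 34.0% and 16.0% of their Input counts lay inside the gene. BMP6 was at -0.12 and -0.30. Of the genes that store or activate ligands, LTBP2 (1.34) and THBS1 (1.58) were called higher in Input, ITGB6 (1.41) was called higher and the protease FURIN (-1.27) lower in J2, and FBN1 was at -0.74 and -0.87. Of the J2 counts, 39.8% of those named ITGB6 and 10.0% of those named FURIN lay inside the gene. Counted inside, ITGB6 was at 0.21 in J2 and was called lower in Input, -1.04, and FURIN held 8 against 3 J2 counts. Among receptors, BMPR1A, a type I BMP receptor, was called lower in both, -1.07 and -1.13, and TGFBR3, a coreceptor, in J2, -1.16. ACVR2B was at -0.32 and -0.18, with 0 of its named counts inside the gene. Regions of any name inside ACVR2B were called lower in both, -2.04 and -1.46. Those inside BMPR1A were uncalled in Input (-0.92) and called lower in J2 (-1.20).

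Among the other SMADs, SMAD6, the second inhibitory SMAD, was at -0.11 and -0.15, and the SMAD5-named counts, none of them inside SMAD5, were called higher in J2 at 1.22. SKI, the corepressor related to SKIL, had 28 counts in MPS1i Input, 155 in DMSO Input, 67 in MPS1i J2 and 504 in DMSO J2. Its log2 ratios were -2.05 (-2.71 to -1.48) and -2.35 (-2.75 to -1.99), lower than those of SMAD4. TGIF1 was at -0.27 and -0.14.

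The ubiquitin ligases and deubiquitinases that set SMAD and receptor turnover had 0 of 9 called higher and 2 lower in Input, where 13.7% of all genes were lower, and 0 of 8 higher and 4 lower in J2, where 17.3% were lower. RNF111 was lower in both, -1.42 and -1.38, as was USP9X, which removes ubiquitin from SMAD4, at -1.04 and -1.10. SMURF2 (-1.27) and NEDD4L (-1.11) were lower in J2, and USP15 was at -0.60 and -0.78. Of the adaptors and phosphatases, ZFYVE9, which presents SMAD2 to the receptor, was lower in J2 (-1.23). DAB2 (3.72) and HGS (1.00) were higher in J2. FKBP1A-named counts, none inside the gene, were higher in Input (1.89), and PPM1A was at -0.72 and 0.60. Counted by overlap with the annotated gene, DAB2 was higher in both, 1.98 and 1.38. HGS was then lower in Input (-1.05) and uncalled in J2 (0.69). RNF111 was lower in Input only (-1.14 and -0.74), and ZFYVE9 was uncalled in J2 (-0.66), as was FKBP1A in Input (0.04). By overlap, 3 of 8 ubiquitin ligases and deubiquitinases were lower in Input and 4 of 8 in J2, beside 16.4% and 20.1% of all genes. The acetyltransferase CREBBP was lower in both, -1.29 and -1.74, and EP300 in J2, -1.55, whereas ATF3 was higher at 3.32 and 1.95 and JUN-named counts at 3.38 and 2.38.

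Target genes had 9 of 19 called higher (47.4%) and 0 lower in Input, beside 17.3% and 13.7% of all genes. In J2, 6 of 19 were higher (31.6%) and 0 lower, beside 21.5% and 17.3%. CDKN1A was at 2.39 and 2.99, ID2 at 1.996 and 3.03 and ID3 at 1.92 and 1.74. CCN2 (1.45), MYC (1.76), SNAI1 (1.67), COL4A2 (1.36) and LTBP2 (1.34) were called in Input, and FN1 (1.81) and ITGB6 (1.41) in J2. CDH2-named counts were at 0.59 and 0.01, with 1.85% and 3.46% inside the gene. Of the Input counts, 0% of those named CCN2 and 26.7% of those named LTBP2 lay inside the gene. Regions of any name inside COL4A2 held 353 counts in MPS1i Input and 635 in DMSO Input, -0.45, and those inside LTBP2 gave an uncalled 0.72. Few ID3 counts (6.98% and 0%) lay inside the gene, and none of the JUN counts did. Of the ID2-named counts, 41.8% in Input and 8.77% in J2 lay inside the gene. Regions of any name inside ID2 held 43 against 24 Input counts, called higher at 1.23. In J2 those regions held 10 against 0, too few for a call. Counted inside the annotated genes, 5 of 15 targets were higher and 3 lower in Input, and 4 of 15 higher and 0 lower in J2.

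**Figure D4:**
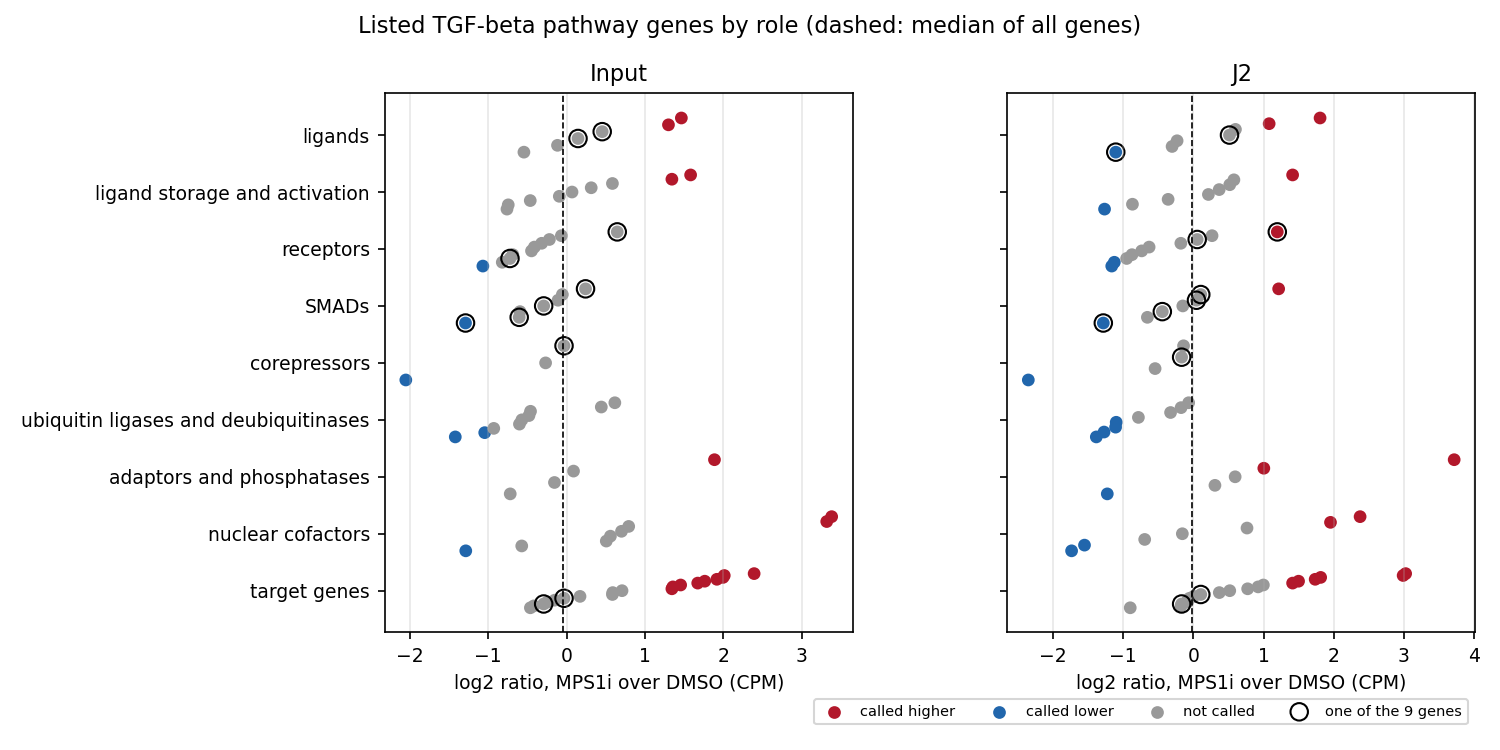
Log2 ratio of MPS1i over DMSO in Input and J2 for each measured gene of the list, grouped by role, 1 library per group, with the 9 genes ringed and the median of all genes as a dashed line. The target genes include 9 called higher in Input and 6 in J2, and no ubiquitin ligase or deubiquitinase was called higher.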

How the data were processed

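Counts per region were made by the authors and deposited as 2 tables, Input and J2, each with an MPS1i and a DMSO column. The submitters' processing notes name Trim Galore, Trimmomatic, cutadapt, STAR, featureCounts, HOMER and the build GRCh38 (hg38), without versions or roles. How regions were called, and the strand setting of the counting, is not given in the sources used here. The labels name the SMARTer Stranded Total RNA kit.

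The genes and lists were chosen with earlier results of these data known. Rows were taken by HOMER's gene name, and sense counts were summed per gene. The strand of 23.3% of MPS1i Input counts, 27.1% of DMSO Input counts and 4.06% of the counts in either J2 library could not be set against a named gene. Mitochondrial regions held 20.2%, 24.3%, 0.836% and 0.608% of the counts of MPS1i Input, DMSO Input, MPS1i J2 and DMSO J2. Log2 ratios used counts + 0.5 over library sums. A call needed at least 50 counts, a 2-fold difference and a 95% interval without 0. A change of J2 enrichment also needed 20 Input counts and used a delta-method interval. Zones (start, body, 50 kb downstream) followed GENCODE 29, needed 20 counts and were, like the comparison with all protein-coding genes, chosen after seeing the data. Named genes were the 9 members, each list gene past the call, the 2 list genes of highest count per role, and the 5 genes nearest to SMAD4. One gene past the call is not reported here. Regions overlapping exactly 1 gene were added as an alternative after seeing the data. The call rule was tested on simulated counts. Python 3.11.15, pandas 2.3.3, scipy 1.17.1 and bedtools 2.31.1 were used, with edgeR 4.0.16 (TMM) and DESeq2 1.42.0 for scaling factors only.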

Additional observations from a re-analysis of the deposited data

How the results depend on the processing

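No paired analysis was possible because each group holds 1 library, and for the same reason none could be left out. Of the 13 alternatives run, the minimum of 20 counts, no filter and the 1.5-fold minimum alter calls only and cannot move a ratio. Neither SMAD4 ratio changed sign under the others, a description only, since SMAD4 was chosen for its low counts. The SMAD4 log2 ratio in Input, -1.29, was -0.61 with both strands, -1.67 with regions overlapping the annotated gene, -0.74 with each region counted once and -3.17 with regions overlapping exactly 1 annotated gene, a setting chosen after seeing the data. In J2, -1.28 became -1.55 with TMM factors, -1.58 with DESeq2 size factors, -0.68 with both strands, -1.68 with overlap, -0.29 with regions counted once, -0.99 without repeats and -3.05 with exactly 1 gene.

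Of the 9 genes, 1 was called in Input, against 4 at a 1.5-fold minimum, 0 with both strands, 3 by overlap, 0 with regions counted once, 2 without repeats and 3 with exactly 1 gene. In J2, 3 were called, 1 of them higher, against 0 with regions counted once, 1 without repeats, and 2 with TMM or DESeq2 factors, neither of them higher. For J2 over Input in MPS1i cells, 2 were called, against 0 when scaled without mitochondrial regions, 4 at 1.5-fold, 0 with regions counted once, 1 without the most-read region and 1 without repeats. In DMSO cells, 1 was called higher; scaled without mitochondrial regions or by overlap, the 1 called was lower. The count was 5 at 1.5-fold, 0 with regions counted once, 2 without the most-read region, 0 without repeats and 2 with exactly 1 gene. For the change of enrichment, 1 was called lower, and 1 higher by overlap, without the most-read region or with exactly 1 gene. The count was 2 at 1.5-fold and 0 with both strands, with regions counted once or without repeats. Of all genes, 3906 were called in Input, against 6035 at a minimum of 20 counts, 7955 with no filter, 6558 at 1.5-fold and 1144 with regions counted once. In J2, 5428 were called, against 9236 with no filter, 8249 at 1.5-fold and 2029 with regions counted once. The causes were not tested, apart from thresholds that by construction admit more genes. Low counts limit some values: SMAD4 intron 10 had 6 counts in MPS1i Input.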
